A study of Mus musculus with 4 samples.

Results

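The miR-181 family is a group of microRNAs (miRNAs, short RNAs that guide silencing proteins to matching messenger RNAs) with 4 members in the counts analysed here, mmu-miR-181a-5p, mmu-miR-181b-5p, mmu-miR-181c-5p and mmu-miR-181d-5p. The members were found by a rule on names alone, and they are 4 of the 1059 mature miRNAs that the deposited counts list. Their names take 6 of the 1211 entries, because each entry pairs a mature miRNA with a precursor and miR-181a and miR-181b each come from a pair of precursors. For these the entry with the highest total over the 4 libraries was used.

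Small RNA was sequenced from the most rostral part of the telencephalic primordium, the front of the embryonic forebrain, of mice at E11.5, to see how miRNAs differ there when Dicer is deleted early. There were 2 libraries of Rx-Dicer mutants (genotype RxCre-DicerF/F) and 2 libraries of control littermates, which the sample labels call WT and the dissection protocol gives as DicerF/F. The floxed Dicer allele (Dicer1tm1Bdh/J) was kept on C57BL/6 and the Rx3-Cre line on CD1, and by the protocol the controls carry the floxed allele too, without Cre. Cre in this line is driven by regulatory sequences of Rax (Rx), so Dicer is deleted in cells of the Rx lineage. The protocol names no sorting of cells, and a dissected piece can also hold cells outside it. The number of embryos per library is not given in the sources used here, and for these small RNA libraries those sources do not say whether the libraries of a genotype came from separate animals, so p-values measure only the spread between these samples, which may be technical.

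Dicer cuts hairpin precursors into mature miRNAs, and a mature miRNA already loaded into a silencing complex can outlast the loss of the enzyme. A miRNA finds its targets mainly through its seed, the bases just behind its 5′ end, so members that share a seed are thought to share many targets. The miR-181 family is best known from lymphocyte development, where it tunes T cell receptor signalling, and it is also abundant in brain and retina.

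The summed counts of all mature miRNAs were 651031 and 516517 in Rx-Dicer libraries 1 and 2, and 1299067 and 1133553 in control libraries 1 and 2. Both mutant libraries were thus shallower than both control libraries. A floor of 3 counts equals 0.000461% and 0.000581% of the mutant libraries and 0.000231% and 0.000265% of the control libraries, far under the level of every miR-181 member. miR-9-5p, a forebrain miRNA that marks neural tissue, took 28.2% and 29.4% of the counts in the mutants and 31.5% and 42.6% in the controls, and was the most abundant of the neural miRNAs in each library. Levels are given as scaled CPM, counts set relative to the library total (CPM) after scaling by edgeR's TMM factors, which were 1.17 and 1.14 for the mutants and 0.926 and 0.814 for the controls. Such levels are shares of a library's miRNAs, and a loss common to all of them would go unseen.

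The mature sequences are shown because the family is defined by them. They were read from RefSeq (build GRCm38.p6), 5′ to 3′, with the seed, bases 2 to 8, in capitals.
mmu-miR-181a-5p: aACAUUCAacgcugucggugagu
mmu-miR-181b-5p: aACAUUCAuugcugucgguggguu
mmu-miR-181c-5p: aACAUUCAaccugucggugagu
mmu-miR-181d-5p: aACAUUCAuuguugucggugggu
All 4 carry the seed ACAUUCA, and none of the other mature sequences among the 1679 in that table does. Of the 1059 mature names in the counts, 895 had a sequence there. Counted from 1 at the 5′ end, miR-181b differs from miR-181a by A9U, C10U and A21G, and has 1 more base. miR-181d differs from miR-181b by C12U alone and is 1 base shorter, and miR-181c equals miR-181a without base 11. All differences between the members therefore lie outside the seed. The settings of the authors' counting for mismatches are not given in the sources used here, so a read of 1 member may also have been counted on another, and the split of counts between members is uncertain.

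The members come from 3 places in the genome (mm10, which is GRCm38, with GENCODE release M21). Mir181a-1 (ENSMUSG00000065565.1) lies at chr1:137966455-137966541 on the + strand and Mir181b-1 (ENSMUSG00000065458.1) 97 bases further at chr1:137966639-137966718. Both lie in an intron of the non-coding transcript Gm4258 and overlap an exon of the long non-coding RNA A430106G13Rik, Mir181a-1 only in part, and Gm26936 spans them on the opposite strand. Mir181a-2 (ENSMUSG00000065423.1) at chr2:38852735-38852810 and Mir181b-2 (ENSMUSG00000065578.1) at chr2:38853830-38853918 are 1019 bases apart on the + strand, in an intron of Nr6a1, which is read from the opposite strand. Mir181b-2 also overlaps an exon of Gm44144 on that opposite strand. Mir181d (ENSMUSG00000076338.1) at chr8:84178716-84178787 and Mir181c (ENSMUSG00000065483.2) at chr8:84178873-84178961 are 85 bases apart on the − strand, within Nanos3 on the same strand and outside its exons. miR-181a and miR-181b thus share their 2 clusters, and miR-181c and miR-181d share the third.

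miR-181b was the most abundant member and miR-181c by far the least. By counts, miR-181b-5p had 13997 and 11718 in Rx-Dicer libraries 1 and 2 and 37667 and 19257 in control libraries 1 and 2. miR-181a-5p had 8549 and 6181 in the mutants and 22686 and 12764 in the controls. miR-181d-5p had 5525 and 5064 in the mutants and 13946 and 7737 in the controls. These members were all among the well covered miRNAs, and the next was not. miR-181c-5p had 138 and 99 in the mutants and 301 and 177 in the controls. The order b, a, d, c was the same in all 4 libraries. Mature lengths run from 22 to 24 bases, so counts of the members need no correction for length, but how well each sequence is ligated during library preparation also enters a comparison between miRNAs and was not measured.

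A minimum of 10 counts, reached in 2 or more libraries, left 274 miRNAs for testing, and all 4 members passed it. Among these 274, miR-181b-5p ranked 9 and 8 by scaled CPM in the mutants and 6 and 10 in the controls. miR-181a-5p ranked 19 and 19 in the mutants and 14 and 17 in the controls. miR-181d-5p ranked 23 and 22 in the mutants and 23 and 29 in the controls. miR-181c-5p stood in the middle of the order, at 137 and 138 in the mutants and 119 and 134 in the controls. All mature miRNAs with a known seed were also summed by seed before that minimum, with the rest kept single, and 231 features passed it. Among these the miR-181 seed ranked 6 and 4 in the mutants and 4 and 6 in the controls.

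By mean control level, miR-181b-5p (26091 ± 7372 scaled CPM, SD, n = 2) lay between miR-125b-5p (32347 ± 4814) and miR-100-5p (25996 ± 8714). miR-181a-5p (16346 ± 3546) lay between miR-744-5p (16351 ± 4226) and let-7a-5p (15849 ± 3165). miR-181d-5p (9989 ± 2264) lay between let-7i-5p (10809 ± 1068) and let-7g-5p (9569 ± 595). The rarest member stood near the middle of the order. miR-181c-5p (221 ± 41.2) lay between miR-1306-5p (225 ± 28.7) and miR-667-5p (217 ± 0.716). Each member differed from its neighbours in this order by less than the larger of the SDs, miR-125b-5p included, so the exact places are not fixed by these data.

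Within the family, miR-181b made up 49.6% and 50.8% of the summed counts in the mutants and 50.5% and 48.2% in the controls. miR-181a made up 30.3% and 26.8% in the mutants and 30.4% and 32.0% in the controls. miR-181d made up 19.6% and 21.96% in the mutants and 18.7% and 19.4% in the controls. For miR-181d both mutants were above both controls, for miR-181a both were below, and for miR-181b the groups overlapped, but for miR-181a and miR-181d mutant 1 differed from the nearest control by less than the 95% Wilson intervals of these shares. miR-181c took 0.489% (95% Wilson interval 0.414 to 0.578) and 0.429% (0.353 to 0.522) in the mutants and 0.403% (0.360 to 0.452) and 0.443% (0.383 to 0.513) in the controls, and these intervals overlap. Intervals and floors cover counting error only, since PCR copies of a molecule are counted along with it.

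Because miR-181a and miR-181b share their clusters and miR-181c and miR-181d share another, the counts of the first pair were set against those of the second, which needs no scaling between libraries. The log2 ratio was 1.99 and 1.79 in the mutants and 2.08 and 2.02 in the controls. Both mutants lay below both controls, with mutant library 1 close to control library 2. The means were 1.89 ± 0.14 and 2.05 ± 0.047 (SD, n = 2 each), a difference of −0.16, smaller than the distance between the mutants (two-sided exact permutation p = 0.33, the smallest that 2 libraries against 2 can give). This design cannot reach p under 0.05 in such a test. The difference was −0.26 without mutant 1 and −0.06 without mutant 2, so its size depended on the mutant used.

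The pairs of precursor entries differed in how alike they were. For miR-181a the entries differed by 18, 9, 14 and 9 counts in mutants 1 and 2 and controls 1 and 2, that is, by almost nothing. For miR-181b the higher entry exceeded the lower by 1907 and 1664 counts in the mutants and by 5176 and 2515 in the controls, which is 13.6%, 14.2%, 13.7% and 13.1% of the higher entry. This gap was thus nearly constant over libraries and genotypes, while the counts themselves differed widely. The hairpins of miR-181a, miR-181b and miR-181d are shown with the mature 5p sequence in capitals, since reads from the members of a pair can differ only in the bases around it.
Mir181a-1: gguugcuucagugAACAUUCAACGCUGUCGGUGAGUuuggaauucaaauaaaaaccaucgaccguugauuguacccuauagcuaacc
Mir181a-2: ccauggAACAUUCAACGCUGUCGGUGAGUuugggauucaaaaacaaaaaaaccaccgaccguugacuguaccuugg
Mir181b-1: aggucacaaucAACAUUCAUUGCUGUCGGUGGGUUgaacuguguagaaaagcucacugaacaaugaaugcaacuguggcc
Mir181b-2: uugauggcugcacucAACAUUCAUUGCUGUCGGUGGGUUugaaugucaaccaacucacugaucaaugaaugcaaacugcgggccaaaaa
Mir181d: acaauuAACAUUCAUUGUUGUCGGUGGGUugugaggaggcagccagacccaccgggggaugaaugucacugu
The hairpins of miR-181a share 1 base before the mature sequence and 4 after it, and those of miR-181b share 2 bases before it and 0 after it. Which entry belongs to which hairpin is not given in the sources used here, so no entry was assigned to chromosome 1 or 2, and the part of the bases after the mature sequence in the gap was not tested. No 3p arm of a miR-181 hairpin has an entry in these counts.

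As a share of all mature miRNA counts, the summed family took 4.33% (95% Wilson interval 4.28 to 4.38) and 4.46% (4.41 to 4.52) in the mutants and 5.74% (5.70 to 5.78) and 3.52% (3.49 to 3.56) in the controls. Both mutants lay between the controls, and the controls lay farther from each other than from the mutants. The mean share was 4.40% ± 0.093 for mutants and 4.63% ± 1.57 for controls (± SD over 2 libraries), a difference of −0.23 percentage points that was smaller than the spread between controls (two-sided exact permutation p = 1). Without control library 1 the difference was 0.88 percentage points, with the mutants higher, and without control library 2 it was −1.34, so its direction changed with the control used. It was also positive, at 0.076 percentage points, when precursor entries were summed. With miR-9-5p left out of the total, the shares were 6.03% and 6.33% in the mutants and 8.38% and 6.14% in the controls, and the difference grew to −1.08 percentage points. The groups still overlapped, but mutant 1 then lay just below both controls (two-sided exact permutation p = 0.667).

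After TMM scaling, the members were compared one by one. The factors, 1.17 and 1.14 for the mutants and 0.926 and 0.814 for the controls, lower mutant levels relative to control levels. miR-181a-5p had 11237 and 10540 scaled CPM in Rx-Dicer libraries 1 and 2 and 18854 and 13839 in control libraries 1 and 2. Both mutants lay below both controls, and control 1 stood well above the other libraries. Its mutant mean was 10888 ± 493 and its control mean 16346 ± 3546 (± SD over 2 libraries, as in the means that follow). The log2 fold change was −0.59 (SE 0.25, 95% interval −1.15 to −0.03), with an adjusted p of 0.445 in edgeR's quasi-likelihood fit, so it did not pass the threshold of 0.05. miR-181b-5p had 18398 and 19981 scaled CPM in the mutants and 31304 and 20878 in the controls. The groups did not overlap, but mutant 2 and control 2 were almost equal. Its means were 19190 ± 1119 and 26091 ± 7372, a log2 fold change of −0.44 (SE 0.26, 95% interval −1.02 to 0.14, edgeR quasi-likelihood adjusted p = 0.587).

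From the third cluster, miR-181d-5p had 7262 and 8635 scaled CPM in the mutants and 11590 and 8388 in the controls. Here the groups overlapped, with mutant 2 above control 2. Its means were 7949 ± 971 and 9989 ± 2264, a log2 fold change of −0.33 (SE 0.27, 95% interval −0.92 to 0.26, edgeR quasi-likelihood adjusted p = 0.684). miR-181c-5p had 181 and 169 scaled CPM in the mutants and 250 and 192 in the controls. Both mutants were below both controls, by a small margin between mutant 1 and control 2. Its means were 175 ± 8.90 and 221 ± 41.2, a log2 fold change of −0.34 (SE 0.28, 95% interval −0.96 to 0.29, edgeR quasi-likelihood adjusted p = 0.695). The size of these values depended on the control used. Without control 1 the log2 fold changes were −0.31, −0.08, −0.09 and −0.04 for miR-181a, b, c and d. Without control 2 they were −0.83, −0.75, −0.56 and −0.59. In a dissected piece of tissue, fewer cells of a type and less RNA per cell cannot be told apart, and this holds for every level given here.

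**Figure D1:**
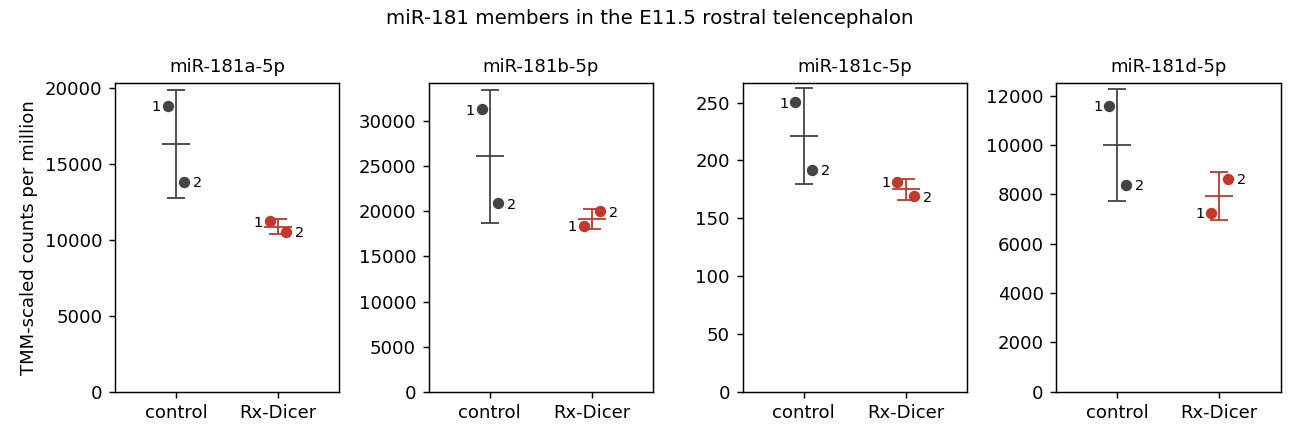
TMM-scaled CPM (y axis, from 0, a separate scale for each miRNA) of the 4 miR-181 members in control and Rx-Dicer libraries; points are single libraries with their replicate number, and bars are the mean and SD of n = 2. In each panel control 1 is the highest library, and control 2 lies close to the mutants for miR-181b, miR-181c and miR-181d.

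In all, 0 of the 4 members were called lower or higher at an adjusted p under 0.05 by edgeR's quasi-likelihood test, and 1 of 4, miR-181a-5p, was under 0.05 before adjustment. DESeq2's Wald test called 0 of 4 and had 0 of 4 under 0.05 before adjustment. Of all 274 miRNAs tested, 9 (3.28%) were called lower and 0 (0%) higher by edgeR, with 25 lower and 3 higher before adjustment, and DESeq2 called 11 lower and 0 higher. The number called lower by edgeR was 1 with total counts only, 14 with libraries scaled to equal counts of red-cell miRNAs (red-cell scaling), and 2, 0 and 4 without mutant 1, control 1 and control 2. The 9 called with TMM scaling were let-7a, b, c, d, f, g, i and j and miR-98-5p. Both mutants lay below both controls for 3 of the 4 members, against 67 (24.5%) of the 274 after TMM scaling. With total counts only this held for 0 of the 4 members and for 23 (8.39%) of the 274. The members are not independent, since they share clusters and may share reads. The fitted log2 fold change was negative for all 4 members with TMM scaling, with a median of −0.39, while the median of all tested was 0.035 and 45.6% of them were negative. With total counts only, miR-181a-5p had −0.19 and miR-181b-5p −0.06, while miR-181c-5p and miR-181d-5p had positive values, 0.057 and 0.059. The median of all tested was then 0.44, so that all 4 stayed below it.

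The summed family, which is the level of the shared seed, had 37249 and 39544 scaled CPM in the mutants and 62393 and 42588 in the controls. Both mutants were below both controls, with control 2 much nearer to the mutants than to control 1. Its mutant mean was 38397 ± 1623 and its control mean 52490 ± 14005, and the log2 fold change was −0.45 (SE 0.26, 95% interval −1.02 to 0.12, edgeR quasi-likelihood adjusted p = 0.571). The interval spans no difference as well as a log2 change of −1.02, so the size of a change is not settled by these libraries. Between the controls alone the log2 ratio of the sum was 0.55 (control 1 over control 2), larger in size than the fitted difference between genotypes, while between the mutants it was −0.086.

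The gap between the controls was shared by the members. The log2 ratio of control 1 to control 2 was 0.45 for miR-181a, 0.58 for miR-181b, 0.38 for miR-181c and 0.47 for miR-181d. Among the 135 tested miRNAs with at least 100 counts in each library, the median size of this ratio was 0.374, and 35 of them had a larger one than the summed family. Between the mutants the median size was 0.204, and the members had 0.092, −0.12, 0.10 and −0.25 for a, b, c and d. The family was thus above the median of these miRNAs in its spread between controls and within their range, but most of them have far fewer counts, and they were not matched to it for depth.

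The value of the sum depended on the control library and on the scaling. Leaving out control 1, the log2 fold change was −0.15 (edgeR quasi-likelihood adjusted p = 0.806), and leaving out control 2 it was −0.77 (adjusted p = 0.155). With total counts only it was −0.07 (adjusted p = 0.872), and with libraries scaled to equal counts of 3 red-cell miRNAs it was −0.89 (adjusted p = 0.135), while the median of all tested miRNAs moved to 0.44 and −0.37. Over all settings tried, adjusted p-values of the sum ran from 0.135 to 0.980.

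**Figure D2:**
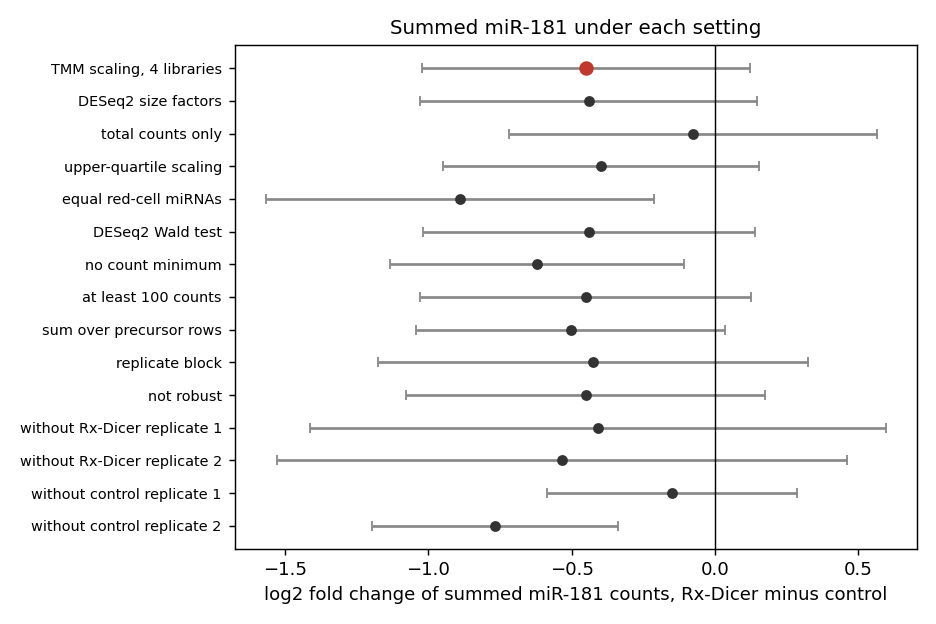
Log2 fold change of summed miR-181 counts, Rx-Dicer minus control (x axis), with its 95% interval (bars), for TMM scaling of the 4 libraries (red point) and for each other setting (dark points); the vertical line marks no difference. All values are negative, from −0.89 to −0.07, and most intervals include 0.

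The let-7 miRNAs, counted by name, make up 8 of the 9 called lower, and the other one, miR-98-5p, has the seed of most of them. Their sum was set beside miR-181 as a ratio, which needs no scaling. let-7e-5p was not called (log2 fold change −0.62, edgeR quasi-likelihood adjusted p = 0.445), and the summed let-7 counts did not pass the threshold (−1.30, SE 0.26, adjusted p = 0.0529). let-7 was chosen for this because its change was already known, so the ratio is a description of where miR-181 stands apart from it. let-7 took 3.77% and 3.83% of counts in the mutants and 8.69% and 5.66% in the controls. For each count of let-7 there were 1.15 and 1.17 counts of miR-181 in the mutants and 0.661 and 0.623 in the controls. By counts, miR-181 thus outnumbered let-7 in both mutants and was outnumbered by it in both controls. Ligation was not measured and a read may be counted on several members, so which family had more molecules is not shown. On the log2 scale the mean ratio was 0.212 ± 0.016 for mutants and −0.640 ± 0.061 for controls (± SD over 2 libraries), a difference of 0.85, much larger than the spread within either group and also 0.85 with miR-98-5p counted in let-7 (two-sided exact permutation p = 0.33, again the smallest possible). The controls, far apart in the level of each family, were close in this ratio.

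The miRNAs whose pattern over the 4 libraries was most like that of the summed family were found among 132 miRNAs outside it with at least 100 counts in each library, by the Euclidean distance between log2 scaled CPM centred on their own mean. They were miR-340-5p (distance 0.0746), miR-146b-5p (0.0887), miR-484 (0.142), miR-30d-5p (0.197) and miR-532-5p (0.200). The members themselves were at 0.0347 (miR-181b), 0.170 (miR-181d), 0.206 (miR-181a) and 0.206 (miR-181c) from their sum. miR-340-5p, miR-146b-5p and miR-484 were therefore nearer to the sum than 3 of its own members. Each member is part of the sum, with miR-181b its largest part, so a member's distance is partly built in, unlike that of an outside miRNA. miR-340-5p had 3362 and 3716 scaled CPM in the mutants and 5502 and 3978 in the controls, with control 1 highest and control 2 close to the mutants, as for miR-181b. The 5 had log2 fold changes from −0.46 (miR-484) to −0.29 (miR-30d-5p) and adjusted p from 0.593 to 0.729 by edgeR's quasi-likelihood test. They were picked by their pattern over these same 4 libraries. A pattern and fold change near those of the sum therefore follow from the choice. With total counts only, miR-146b-5p and miR-30d-5p had positive values.

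The other neural miRNAs were taken from a list of 21, of which 13 were tested. None (0 of 13) was called lower or higher by edgeR's quasi-likelihood test or by DESeq2, against 9 (3.28%) lower and 0 (0%) higher of all 274 by edgeR. Before adjustment 2 of 13 were lower and 0 higher by edgeR, against 25 lower and 3 higher of all 274. A negative log2 fold change was fitted for 9 of 13, against 45.6% of all tested. The most negative were miR-9-5p and miR-124-5p, and miR-124-3p was not among the 13 tested. Positive values were fitted for miR-134-5p (0.34, both mutants above both controls), miR-135a-5p (0.23), miR-128-1-5p (0.048) and miR-132-5p (0.0092). For all tested the median was 0.035, and for the list it was −0.38. That median moved with the setting, to −0.0035 with total counts only, −0.82 with red-cell scaling, −0.53 with no count minimum and −0.59 without mutant 1. The list's summed level was 307226 and 313784 scaled CPM in the mutants and 419085 and 603476 in the controls, and it is mostly miR-9-5p. miR-9-5p alone had 240963 and 259155 in the mutants and 339853 and 524056 in the controls. Both mutants lay below both controls, but the order of the controls was the reverse of that for miR-181, with control 2 the highest. Its log2 fold change was −0.79 (adjusted p = 0.242, edgeR's quasi-likelihood test), and it passed the threshold with red-cell scaling (−1.19, adjusted p = 0.0287) and with no count minimum (−0.96, adjusted p = 0.00937), settings in which no miR-181 member passed. The same miRNA had −0.36 (adjusted p = 0.366) with total counts only, −0.48 (adjusted p = 0.213) without control 2 and −1.03 (adjusted p = 0.119) without control 1, and its adjusted p ran from 0.00937 to 0.957 over the alternatives. miR-124-5p, of neurons, had 195 and 205 scaled CPM in the mutants and 359 and 297 in the controls, a log2 fold change of −0.72 (adjusted p = 0.33, same test), which became −1.14 (adjusted p = 0.0380) with red-cell scaling and −0.32 (adjusted p = 0.479) with total counts only.

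Markers of other tissues that the dissected piece could hold were summed in the same way. By edgeR's quasi-likelihood test and by DESeq2 0 members of any of these lists were called, against 9 (3.28%) of all 274 by edgeR. Mesenchyme markers (5 tested, led by miR-199a-5p) had 15442 and 15256 scaled CPM in the mutants and 6370 and 15231 in the controls. They were lowest in control 1, the library where every miR-181 member was highest. Red-cell miRNAs (3 tested, led by miR-486a-5p) had 7595 and 8504 in the mutants and 5737 and 6362 in the controls, so both mutants were above both controls. Surface epithelium markers (6 of 10 tested, led by miR-182-5p, with miR-200c-5p, miR-429-5p and miR-203-5p at 0 in every library) had 1560 and 14872 in the mutants and 3511 and 7317 in the controls. These markers differed more between libraries of a genotype than between genotypes. Their list names 5p arms only, and 3p arms take 114 of the 1211 entries. A value of 0 therefore holds for the 5p arm alone and does not show that the tissue is absent. White blood cell markers (3 tested, led by miR-155-5p), among the cells where miR-181 is best known, had 477 and 455 in the mutants and 567 and 468 in the controls. This sum is mostly miR-155-5p, whose groups overlapped, and the other members were split. miR-142a-5p had 98.6 and 106 in the mutants and 59.0 and 90.0 in the controls, with both mutants higher. For miR-150-5p both mutants were lower, with 15.8 and 15.3 against 22.4 and 42.3. The endothelial miR-126a-5p had 431 and 244 in the mutants and 253 and 403 in the controls, and miR-204-5p, of lens and pigment epithelium, had 88.1 and 81.8 in the mutants and 135 and 155 in the controls. Before adjustment only miR-204-5p was under 0.05 among these lists, against 25 lower and 3 higher of all 274 by edgeR. The part of these tissues in the miR-181 levels was not tested.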

How the data were processed

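The authors sequenced small RNA with 75-base single-end reads and counted them with miRDeep2 on mm10 and miRBase; the deposited values are raw whole-number counts, with an entry for each mature miRNA on each of its precursors. A read that fits several members or precursors may be counted more than once. Depth per library is given above as total counts. Here, 1 entry per mature miRNA (highest total) was kept, and miRNAs that reached 10 counts in 2 or more libraries entered a robust quasi-likelihood fit in R 4.3.3 (edgeR 4.0.16 on limma 3.58.1), with TMM scaling, no covariate but genotype, and Benjamini-Hochberg adjustment. A further fit replaced the members by their sum. Ratios and shares were compared by two-sided exact permutation tests, and Wilson intervals used scipy 1.17.1 (Python 3.11.15). Alternatives were other scalings, DESeq2's Wald test (1.42.0), other count minimums, summed or separate precursor entries, sums by seed, other totals, miR-98-5p counted with let-7, the replicate number as a block and each library left out. Scripts were tested on simulated data. Named miRNAs are the members, miRNAs of the same seed, the 5 most alike in pattern, neighbours in control level, miR-9-5p, let-7 and the listed markers. The rule for members uses names alone, but members and lists were chosen with earlier results of these data known. Replicates of a genotype differed by more than sampling noise and were used as separate libraries.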

Additional observations from a re-analysis of the deposited data

How the results depend on the processing

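The 4 members had 62 values under the alternatives, of which 60 were negative and 0 passed an adjusted p of 0.05 (edgeR's quasi-likelihood test or DESeq2, adjusted p from 0.0939 to 0.985). The exceptions in direction were miR-181c-5p (0.057) and miR-181d-5p (0.059) with total counts only, as were miR-146b-5p (0.013) and miR-30d-5p (0.097). Without single libraries the log2 fold change ran from −0.83 to −0.31 for miR-181a, from −0.75 to −0.08 for miR-181b, from −0.56 to −0.09 for miR-181c, from −0.59 to −0.04 for miR-181d, and from −0.59 to 0.069 (without control 1) for miR-30d-5p. In such a fit the lone library of a group is assumed to vary like the other group. The summed family stayed negative under the 15 alternatives, from −0.89 to −0.07. The median of all tested was 0.035 with TMM scaling, 0.14 with upper-quartile scaling and −0.14 with no count minimum.

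The number of miRNAs called lower was 9, but 1 with total counts only and 14 with red-cell scaling, and 0 to 9 without single libraries. With the option for robust fitting off, an alternative chosen after seeing the data, it was 7. The difference in share became 0.076 percentage points when precursor entries were summed, −1.08 with miR-9-5p left out of the total and −0.44 with let-7 and miR-98-5p left out, and ran from −1.34 to 0.88 without single libraries. The differences in both log2 ratios kept their direction in the alternatives run, from −0.26 to −0.06 (a and b against c and d) and from 0.81 to 0.89 (against let-7). The cause of these changes was not tested.

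In a fit with a replicate block, that is, the replicate number as a factor, 0 miRNAs were called lower and the summed family had −0.43. The numbers do not pair the samples by any label, and deviations of same-numbered libraries correlated at 0.0825 over 274 miRNAs and 0.0931 over 135.

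Depth limits miR-181c most, with 99 to 301 counts a library.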
